A study of Sus scrofa with 8 samples.

Results

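Potassium channel genes were taken as every row of the deposited count table whose gene name begins with KCN, continues with letters and then has a digit, which gave 93 genes among 31014. All 93 were protein-coding, and the deposited description of all 93 named potassium. Heart tissue came from wild-type (WT) miniature pigs, 3 samples given vehicle and 5 given doxorubicin, an anthracycline cancer drug that can injure the heart, and RNA sequencing measured all 8. No label states that each sample is a different animal, so the p-values rest on sample spread that may be technical. No source used here gives the dose, schedule, age, sex or heart chamber. By function the 93 fell into 39 voltage-gated channel subunits, 8 channels opened by calcium or sodium, 15 inward rectifiers (KCNJ), 15 two-pore channels (KCNK) and 16 auxiliary subunits.

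Potassium channels let potassium leave the heart muscle cell and so end each action potential and hold the membrane at rest between beats. Voltage-gated channels carry the transient outward current early in the action potential and the delayed rectifier currents that repolarise the cell later. Inward rectifiers hold the resting potential, or open when acetylcholine acts or when cellular ATP falls. Two-pore channels pass a background leak, and auxiliary subunits have no potassium pore of their own and change the gating, surface level or oxygen sensing of the channels they join.

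Library totals ran from 16105242 to 18267178 counts, of which 14193 to 28161 fell on the 93 genes. The 10 ventricular muscle cell markers summed to between 59728 and 66712 CPM (counts per 1e6 reads) in vehicle, and the 5 atrial markers found (MYH6 was not found under its symbol) to between 38.6 and 45.0 CPM. After doxorubicin those sums ran from 35642 to 62075 CPM and from 45.3 to 179 CPM. Doxorubicin 5 stood apart: its summed ventricular muscle markers were the lowest of the 8 libraries and its summed fibroblast markers the highest, at 31371 CPM against 2472 to 7240 CPM in the other doxorubicin libraries and 1235 to 1440 CPM in vehicle. The sums do not speak for each marker: collagen genes and POSTN made up most of the fibroblast sum, whereas PDGFRA stood at 25.6 CPM in doxorubicin 5 against 35.9 to 47.4 CPM in vehicle, and TNNT2 of ventricular muscle at 4279 CPM against 1805 to 3062 CPM. In tissue of mixed cells, fewer cells of a type and less RNA per cell cannot be told apart.

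A small part of the family carried nearly all of its messenger RNA. Levels of different genes were compared as CPM per kilobase of the deposited gene model length. The 10 highest genes in vehicle held 95.4% of the summed vehicle level of the 93, and 93.2% of the level after doxorubicin. In order they were KCNJ4, KCNE1, KCNIP2, KCNJ8, KCNA5, KCNJ5, KCNJ3, KCNH2, KCNQ1 and KCNJ2. This order depends on the gene model lengths, which were 16180 bases for KCNJ2 and 939 for KCNE1. By CPM alone KCNIP2 led in vehicle (358), followed by KCNJ4 (251) and KCNJ2 (134), with KCNE1 at 63.6. KCNJ4, an inward rectifier, led at 75.5 ± 9.9 CPM per kb in vehicle (SD, n = 3), and KCNE1, the short auxiliary subunit of the slow delayed rectifier, followed at 67.8 ± 13 CPM per kb. The vehicle levels of this leading pair lay within 1 SD of each other, as did those of KCNIP2 (47.2 ± 7.0 CPM per kb) and KCNJ8 (44.5 ± 6.1 CPM per kb) and those of KCNA5 (34.9 ± 14 CPM per kb) and KCNJ5 (33.8 ± 9.9 CPM per kb). KCNH2 (11.8 ± 0.51 CPM per kb) and KCNQ1 (10.3 ± 1.7 CPM per kb) differed by less than the SD of KCNQ1 but by more than that of KCNH2. Below KCNJ2 (8.27 ± 0.53 CPM per kb) the next gene, KCNJ11, stood at 2.43 ± 0.39 CPM per kb. At the other end 9 of the 93 had no read in any library, and 39 were read in all 8.

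**Figure D1:**
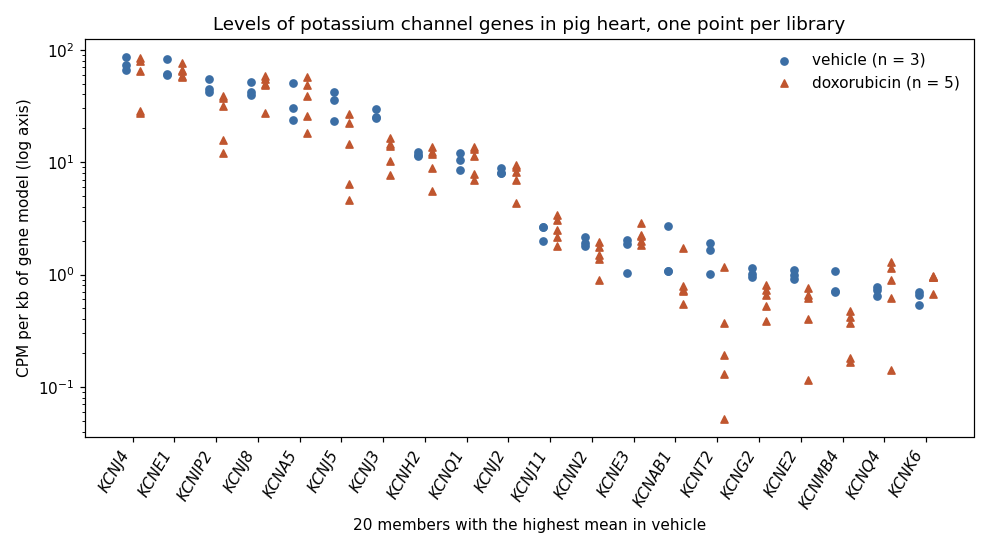
Level of the 20 highest potassium channel genes in vehicle, as CPM per kilobase of gene model on a log axis, with 1 point per library (circles, vehicle, n = 3; triangles, doxorubicin, n = 5). The leading 10 lie above a step from KCNJ2 at 8.27 to KCNJ11 at 2.43 CPM per kb in vehicle, and KCNJ3 is the only one of the 10 whose groups are separated and whose difference passed the test.

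Summed over their genes, inward rectifiers stood at 190, 196 and 188 CPM per kb in vehicle 1 to 3 and at 180, 161, 103, 194 and 74.4 CPM per kb in doxorubicin 1 to 5. The doxorubicin libraries thus spread widely, with 3 and 5 low and 1 and 4 close to or within the range of vehicle. Auxiliary subunits went from 121 ± 18.2 to 98.0 ± 15.3 CPM per kb, and voltage-gated channels from 60.4 ± 15.4 to 62.3 ± 21.7 CPM per kb (SD, n = 3 and n = 5). Two-pore channels were the scarcest class in vehicle, at 1.15, 0.675 and 0.955 CPM per kb. After doxorubicin the two-pore sums were 1.91, 2.21, 5.58, 1.24 and 7.87 CPM per kb, all above vehicle and highest in doxorubicin 3 and 5. Channels opened by calcium or sodium had 3.96 ± 0.711 and 4.12 ± 1.20 CPM per kb.

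**Figure D2:**
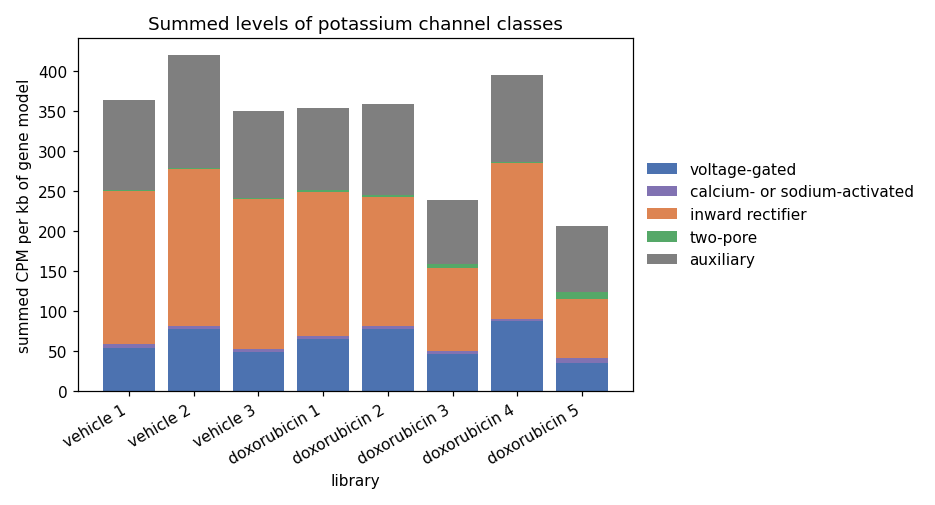
Summed level of each potassium channel class in every library, as CPM per kilobase of gene model, stacked from 0. Inward rectifiers and auxiliary subunits make up most of every bar, and the bars of doxorubicin 3 and doxorubicin 5 are the lowest, with inward rectifiers at 103 and 74.4 CPM per kb.

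The comparison asked which of these genes differed between hearts given doxorubicin and hearts given vehicle. Counts were tested over the whole table by edgeR's quasi-likelihood test with Benjamini-Hochberg adjustment over 14938 genes, and adjusted p under 0.05 was the threshold. Of the 93 genes 41 passed the filter on low counts and were tested. Of these, 4 rose (KCNK1, KCNIP1, KCNAB2 and KCNN3), 3 fell (KCND3, KCNMB4 and KCNJ3) and 34 did not pass. The share that passed, 17.1%, lay below the 24.9% of all tested genes that did so. By direction 9.76% rose and 7.32% fell, against 13.6% and 11.3% of all tested genes. Groups did not overlap for 13 of the 41 (31.7%), against 34.9% of all tested genes. The median log2 fold change of the 41 was 0.10, beside 0.02 over all tested genes. The filter asked for 0.564 CPM, on unscaled library totals, in at least 3 libraries. For 9 of the 41 no vehicle library reached that level, so these were tested only because of reads after doxorubicin. They were KCNK1, KCNK12, KCNK13, KCNIP1, KCNIP3, KCND1, KCNJ14, KCNQ5 and KCNT1. In all, 15 of the 41 reached it in fewer than 3 vehicle libraries and so needed doxorubicin reads, KCNAB2 and KCNA7 among them. None of the 41 needed reads in vehicle to be tested.

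**Figure D3:**
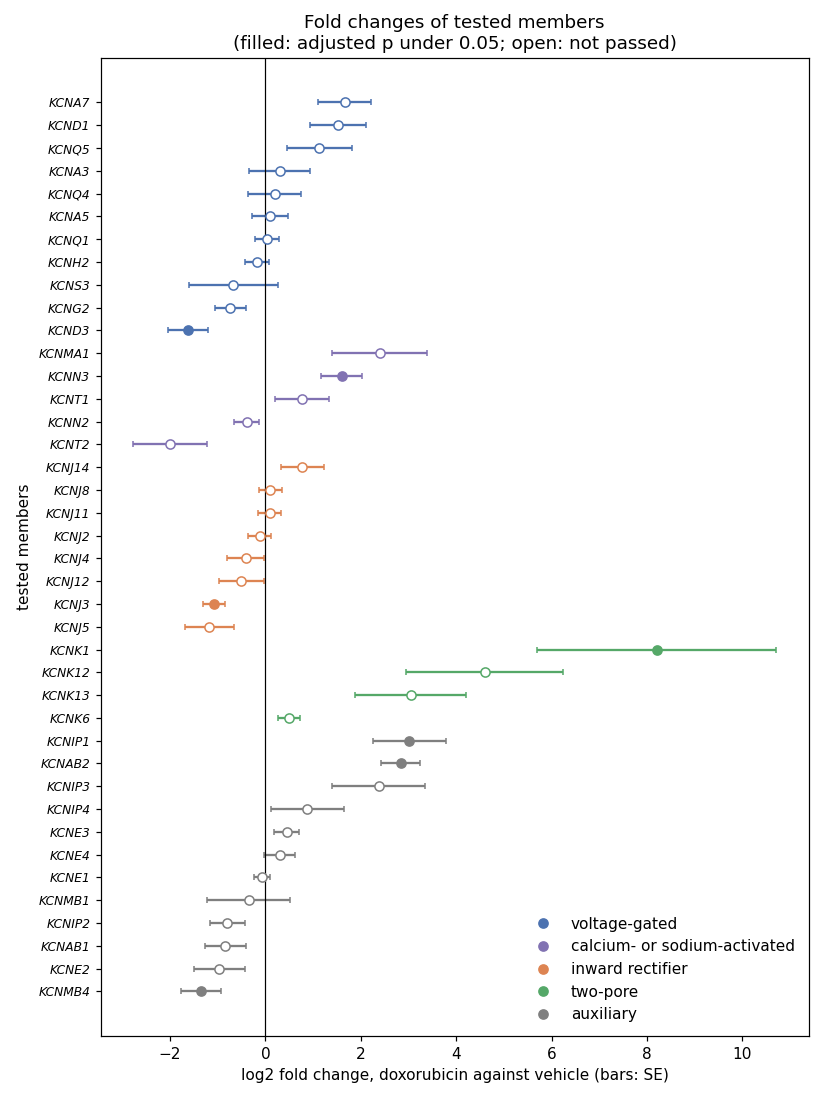
Log2 fold change (doxorubicin against vehicle, bars show SE) of 40 of the 41 tested potassium channel genes by class, with filled points for adjusted p under 0.05. The 7 filled points are spread over all 5 classes in both directions; the position of KCNK1 at 8.20 depends on how a count of 0 in vehicle is handled.

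The transient outward current rests on KCND pore subunits with the calcium-binding subunit KCNIP2. KCND3, the pore subunit Kv4.3 (Sscrofa11.1 chromosome 4, 108394687 to 108621514, plus strand), had 6.14, 3.33 and 3.63 CPM in vehicle 1 to 3 and 1.69, 1.77, 0.794, 2.07 and 0.750 CPM in doxorubicin 1 to 5. Every doxorubicin library lay below every vehicle library. KCND3 fell by 1.62 on the log2 scale (SE 0.41, adjusted p = 0.0222). It did not pass without vehicle 1 (adjusted p = 0.117) or vehicle 3 (adjusted p = 0.0661), and a little-read antisense RNA with 70 reads in all lies within it. KCND2, the other cardiac pore subunit of this current, had 2 reads in vehicle and 8 after doxorubicin and was not tested. KCND1, a further relative, went from 0.284 ± 0.126 to 0.824 ± 0.363 CPM without overlap and did not pass (log2 fold change 1.52, SE 0.59, adjusted p = 0.0822). KCND1 was tested only because of reads after doxorubicin, which favours a rise.

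KCNIP2, which raises the surface level of Kv4 channels, had 337, 419 and 319 CPM in vehicle and 284, 241, 119, 295 and 91.9 CPM after doxorubicin. Groups did not overlap, and doxorubicin 3 and 5 were the lowest. Its log2 fold change of −0.80 (SE 0.37) did not pass (adjusted p = 0.136). Set against each other within a library, KCNIP2 reads were 54.8, 126 and 88.0 times those of KCND3 in vehicle and 168, 136, 150, 142 and 123 times after doxorubicin. The mean log2 of this ratio was 6.40 in vehicle and 7.16 after doxorubicin, a difference of 0.76. An exact permutation test over the 56 arrangements of the group labels gave a two-sided p = 0.0357, and adjusted over the 6 ratios examined it was 0.214, so the ratio did not pass. The other members of the family, known mainly from nerve cells, were scarce. KCNIP1 (chromosome 16, 53272652 to 53694974, minus strand) had 0.143, 0.0693 and 0.0711 CPM in vehicle, from 4 reads in all, and 0.437, 0.657, 1.54, 0.363 and 1.05 CPM after doxorubicin. All 5 doxorubicin libraries lay above vehicle, but the gene was tested only because of reads there, which favours a rise. KCNIP1 rose by 3.02 on the log2 scale (SE 0.76, adjusted p = 0.0216). KCNIP1 did not pass without vehicle 1, 2 or 3 (adjusted p = 0.0707, 0.0741 and 0.0901), and without doxorubicin 2, 3 or 5 it was too rarely read to be tested. KCNMB1 lies within it on the other strand, and since the use of strand in counting is not given, reads where these genes overlap cannot be told apart. KCNIP3 and KCNIP4 had log2 fold changes of 2.37 (SE 0.98, adjusted p = 0.0997) and 0.88 (SE 0.76, adjusted p = 0.415). Like KCNIP1, KCNIP3 was tested only because of reads after doxorubicin.

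The delayed rectifiers differed little in their group means. KCNQ1, the pore subunit of the slow delayed rectifier, had 66.5 ± 10.95 CPM in vehicle and 68.1 ± 19.7 CPM after doxorubicin (log2 fold change 0.04, SE 0.25, adjusted p = 0.930). Its libraries after doxorubicin ran from 44.8 CPM in doxorubicin 5 to 88.8 CPM in doxorubicin 4, beyond the vehicle range on both sides. KCNE1, its auxiliary subunit, had 63.6 ± 11.9 and 60.6 ± 7.26 CPM (log2 fold change −0.07, SE 0.16, adjusted p = 0.775). KCNE1 reads were 0.851 to 1.02 times those of KCNQ1 in vehicle and 0.686 to 1.37 times after doxorubicin, highest in doxorubicin 5, and the exact permutation p of the difference was 0.893. KCNH2, the pore subunit of the rapid delayed rectifier (hERG in humans), had 69.3 ± 3.03 and 61.4 ± 19.0 CPM (log2 fold change −0.17, SE 0.26, adjusted p = 0.644). Doxorubicin 5 again was the lowest at 32.7 CPM, and without it the log2 fold change of KCNH2 was −0.01. KCNE2, an auxiliary subunit that can join KCNH2, had 1.36, 1.11 and 1.21 CPM in vehicle and 0.491, 0.758, 0.140, 0.934 and 0.800 CPM after doxorubicin. These groups did not overlap, but the change did not pass (log2 fold change −0.97, SE 0.54, adjusted p = 0.204). The signs of KCNE1, KCNH2 and KCNQ1 turned under other scalings, so no direction is given for them.

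KCNA5, the pore subunit of the ultrarapid delayed rectifier, which in human heart is mainly atrial, had 86.2, 147 and 68.4 CPM in vehicle. After doxorubicin it had 111, 138, 73.5, 163 and 52.4 CPM, so the groups overlapped over most of their range (log2 fold change 0.10, SE 0.38, adjusted p = 0.863). Of its cytosolic beta subunits, KCNAB2 gave the smallest p of all 41 genes. KCNAB2 (chromosome 6, 66928374 to 67016846, plus strand) had 0.500, 0.763 and 0.284 CPM in vehicle and 2.73, 2.88, 4.58, 3.94 and 4.50 CPM after doxorubicin. Its 5 doxorubicin libraries lay close together and far above vehicle. KCNAB2 rose 7.13-fold (log2 fold change 2.83, SE 0.42, adjusted p = 0.00563). It passed without any 1 library and in all 10 other settings. In vehicle only vehicle 2 reached the filter's level, so KCNAB2 was tested because of its doxorubicin reads, which favours a rise. KCNAB1, the more abundant relative, had 12.0 CPM in vehicle and 6.70 CPM after doxorubicin on average, and did not pass (log2 fold change −0.84, SE 0.43, adjusted p = 0.168). It did pass without doxorubicin 1, its highest doxorubicin library at 12.9 CPM. KCNAB1 overlaps SSR3 on the other strand, which had 10546 reads in all against 1158 for KCNAB1. Since the use of strand in counting is not given, reads where these genes overlap cannot be told apart.

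Other voltage-gated genes were scarcer. KCNA7, a shaker-related channel of muscle, had 0.357, 0.763 and 0.640 CPM in vehicle and 0.873, 3.54, 1.82, 1.19 and 1.95 CPM after doxorubicin. Its groups did not overlap, and its adjusted p of 0.0522 lay just outside the threshold (log2 fold change 1.66, SE 0.55). KCNA7 passed in 6 of the 10 other settings and without doxorubicin 1. It overlaps NTF4 on the same strand, which had 100 reads in all against 212 for KCNA7 and a log2 fold change of 2.68 (adjusted p = 0.0921). Reads where these genes overlap cannot be told apart. KCNG2, a silent subunit that works only in mixed channels, had 2.78 ± 0.262 and 1.67 ± 0.452 CPM without overlap (log2 fold change −0.74, SE 0.33, adjusted p = 0.119). KCNA4, a further transient outward subunit, had 1 read in vehicle and 42 after doxorubicin and was not tested. Of the 39 voltage-gated genes 27 were not tested, 4 of them without any read.

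Among inward rectifiers, the pair that forms the acetylcholine-gated channel was lower on average. KCNJ3, the subunit GIRK1 (chromosome 15, 62263913 to 62415915, plus strand), had 138, 114 and 118 CPM in vehicle and 76.5, 64.1, 47.1, 67.6 and 35.6 CPM after doxorubicin. The highest doxorubicin library lay well below the lowest vehicle library. KCNJ3 fell by 1.08 on the log2 scale (SE 0.23, adjusted p = 0.0135), and without vehicle 1 or vehicle 3 it did not pass (adjusted p = 0.0675 and 0.0582). Its partner KCNJ5, the subunit GIRK4, had 84.8, 46.0 and 71.7 CPM in vehicle and 29.1, 44.6, 12.7, 53.6 and 9.15 CPM after doxorubicin. Here the groups overlapped, since doxorubicin 4 exceeded vehicle 2, and the log2 fold change of −1.18 (SE 0.52) did not pass (adjusted p = 0.119). KCNJ3 reads were 1.62 to 2.49 times those of KCNJ5 in vehicle and 1.26 to 3.89 times after doxorubicin (exact permutation p = 0.554). CHRM2, the muscarinic receptor that opens this channel, fell as well, from 183 ± 22.5 to 99.9 ± 29.0 CPM (log2 fold change −0.87, SE 0.25, adjusted p = 0.0340), but not with library size only (adjusted p = 0.162) or without any 1 of vehicle 1 to 3 and doxorubicin 1 and 4 (adjusted p = 0.0530 to 0.133).

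The resting-potential rectifiers did not pass. KCNJ4 had 221, 286 and 245 CPM in vehicle and 262, 213, 95.5, 279 and 91.1 CPM after doxorubicin (log2 fold change −0.42, SE 0.38, adjusted p = 0.439). Doxorubicin 3 and 5 were far below all other libraries, while doxorubicin 1 and 4 lay within the range of vehicle. KCNJ2, the subunit Kir2.1, had 134 ± 8.55 and 123 ± 33.2 CPM (log2 fold change −0.12, SE 0.24, adjusted p = 0.730), with 70.3 CPM in doxorubicin 5 and 112 to 153 CPM in the other 4. KCNJ12, the subunit Kir2.2, was scarce at 1.20 ± 0.0765 and 0.843 ± 0.435 CPM. It overlaps a pseudogene on the other strand, which had 3 reads in all against 134 for KCNJ12. Since the use of strand in counting is not given, reads where they overlap cannot be told apart.

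Channels closed by ATP join KCNJ11 or KCNJ8 pores to sulfonylurea receptors. KCNJ8, the pore of vascular and pericyte channels, had 112 ± 15.4 and 120 ± 29.9 CPM (log2 fold change 0.10, SE 0.24, adjusted p = 0.775). KCNJ11, the pore subunit of heart muscle, had 8.99 ± 1.44 and 9.58 ± 2.42 CPM (log2 fold change 0.09, SE 0.24, adjusted p = 0.805). KCNJ11 reads were 0.0689 to 0.0984 times those of KCNJ8 in vehicle and 0.0547 to 0.116 times after doxorubicin. The receptor gene ABCC9 had 187 ± 33.1 and 114 ± 46.1 CPM and did not pass (log2 fold change −0.72, SE 0.35, adjusted p = 0.145). Pericyte markers, of which ABCC9 is 1, summed to 519 to 774 CPM in vehicle and 344 to 769 CPM after doxorubicin. Of these 6 markers PDGFRB and CSPG4 rose and RGS5, the most abundant in vehicle, fell, and their part in these values was not tested.

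Channels opened by calcium moved unequally. KCNN3, the small-conductance channel SK3 (chromosome 4, 94913631 to 95112845, plus strand), had 2.07, 0.902 and 1.21 CPM in vehicle and 4.20, 5.76, 3.22, 5.71 and 2.25 CPM after doxorubicin. The groups were separate, with doxorubicin 5 just above the highest vehicle library. KCNN3 rose 3.02-fold (log2 fold change 1.596, SE 0.43, adjusted p = 0.0263). It did not pass without vehicle 1, 2 or 3 (adjusted p = 0.0545, 0.0912 and 0.104), without doxorubicin 2 (adjusted p = 0.0548) or with the gene density trend removed (adjusted p = 0.0731). KCNN3 overlaps PMVK on the same strand, whose log2 fold change was −0.00. KCNN2, the more abundant SK2, had 7.61 ± 0.679 and 5.80 ± 1.59 CPM (log2 fold change −0.39, SE 0.26, adjusted p = 0.286).

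KCNMA1, the large-conductance BK channel typical of smooth muscle, had 4.50, 1.39 and 2.49 CPM in vehicle and 4.75, 4.85, 10.9, 2.90 and 50.01 CPM after doxorubicin. Its mean after doxorubicin rests on doxorubicin 5: the log2 fold change was 2.39 (SE 1.004, adjusted p = 0.105), and 1.07 without that library (adjusted p = 0.134). The 6 smooth muscle markers summed to 4288 CPM in doxorubicin 5, 1947 CPM in doxorubicin 3 and 489 to 881 CPM in the other 3, against 438 to 889 CPM in vehicle. Most of the sum in doxorubicin 5 was TAGLN (2132 CPM) and ACTA2 (1826 CPM), while MYH11 had 60.6 CPM there against 26.1 to 236 CPM in vehicle, and of the 6 markers CNN1 alone passed. The summed fibroblast markers were likewise highest in doxorubicin 5 and next highest in doxorubicin 3. Not every marker followed the sum: among doxorubicin libraries TCF21 was lowest in doxorubicin 5 (8.25 CPM) and PDGFRA in doxorubicin 3 (9.62 CPM). The part of either list in the level of KCNMA1 was not tested. KCNMB4, a BK auxiliary subunit best known from nerve cells (chromosome 5, 34561990 to 34634241, plus strand), had 2.71, 2.77 and 4.20 CPM in vehicle and 1.86, 0.707, 1.63, 1.45 and 0.650 CPM after doxorubicin, without overlap. KCNMB4 fell by 1.35 on the log2 scale (SE 0.42, adjusted p = 0.0422). It passed only with all libraries, without doxorubicin 1 or without doxorubicin 5 among the library sets, and the other 6 sets gave adjusted p from 0.0566 to 0.165. It also failed with library size only (0.103), with no filter (0.0563) and without the density trend (0.0771). KCNMB1, the BK subunit of smooth muscle, had 2.21 and 1.72 CPM on average (log2 fold change −0.35, SE 0.86, adjusted p = 0.786), and with 1 library left out its log2 fold change ran from −0.94 to 1.08.

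KCNT2, a channel opened by sodium, had the lowest fold change of the 41. It stood at 18.6, 9.78 and 16.1 CPM in vehicle and at 11.3, 1.26, 3.55, 1.87 and 0.500 CPM after doxorubicin. Doxorubicin 1 lay within the vehicle range and the other 4 far below it. The log2 fold change of −2.01 (SE 0.77) did not pass (adjusted p = 0.0825), whereas without doxorubicin 1 it was −3.04 and passed (adjusted p = 0.00801). It also passed by DESeq2 (adjusted p = 0.0268) and limma voom with quality weights (adjusted p = 0.000377). These 2 settings called more genes of the 14938 tested, 4945 and 8051, against 3714 in the main fit.

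**Figure D4:**
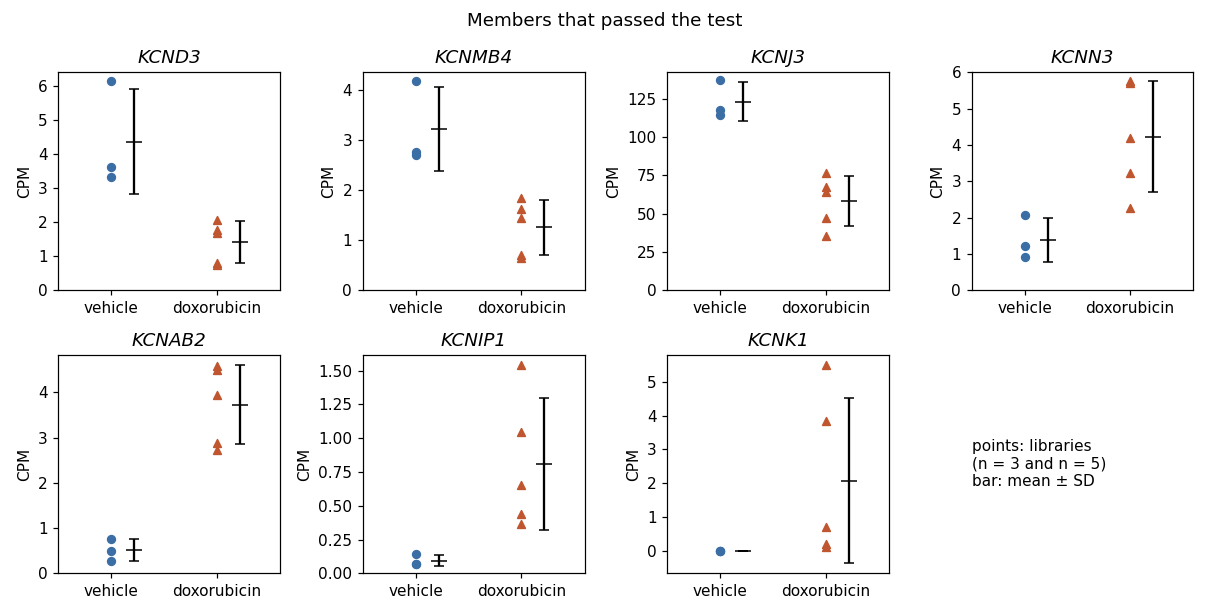
CPM of the 7 potassium channel genes that passed the test, with 1 point per library (circles, vehicle, n = 3; triangles, doxorubicin, n = 5) and mean ± SD beside them. KCND3, KCNMB4 and KCNJ3 are lower and KCNN3, KCNAB2, KCNIP1 and KCNK1 higher after doxorubicin without overlap of the groups, and the points of KCNK1 run from 0.109 to 5.50 CPM.

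Of the 15 two-pore channels 4 were tested, and 3 of these (KCNK1, KCNK12 and KCNK13) entered the test through their doxorubicin reads, so their direction was set by the filter. KCNK1, the weakly rectifying leak channel TWIK1 (chromosome 14, 57268064 to 57319338, minus strand), was not read in any vehicle library and had 2, 14, 82, 4 and 110 reads in doxorubicin 1 to 5. Levels after doxorubicin were 0.109, 0.707, 3.83, 0.207 and 5.50 CPM, so that doxorubicin 3 and 5 held most of the reads. Against a floor of 3 counts summed over the vehicle libraries, which covers counting error only, KCNK1 was at least 30.4-fold higher after doxorubicin, and at least 18.3-fold without doxorubicin 5. Its adjusted p of 0.0499 lay at the threshold. KCNK1 did not pass with RLE factors (0.0506), with no filter (0.107), with factors computed without the most abundant genes (0.0512), without the density trend (0.0558) or without vehicle 1, 2 or 3 (0.125, 0.105 and 0.117). Without doxorubicin 2, 3 or 5 it was too rarely read to be tested. KCNK12, a relative that gives little or no current by itself, had 0, 7 and 0 reads in vehicle and 16, 32, 99, 2 and 269 reads after doxorubicin (adjusted p = 0.0668). It passed with library size only (adjusted p = 0.0485), by DESeq2 (adjusted p = 0.0302), by limma voom (adjusted p = 0.0196) and without doxorubicin 4 (adjusted p = 0.0320). KCNK13 had 0.167 ± 0.230 and 1.41 ± 1.59 CPM (log2 fold change 3.04, SE 1.17, adjusted p = 0.0809), again highest in doxorubicin 5, and it passed by DESeq2 and limma voom. KCNK6, the most abundant two-pore gene in vehicle, had 4.07, 3.12 and 3.84 CPM there and 5.51, 5.51, 5.51, 3.89 and 5.601 CPM after doxorubicin. Doxorubicin 1, 2, 3 and 5 lie close together and doxorubicin 4 lies within the vehicle range (log2 fold change 0.50, SE 0.23, adjusted p = 0.134). KCNK3, the acid-sensitive leak channel TASK1, had 4 reads in vehicle and 47 after doxorubicin, 33 of them in doxorubicin 3, and was not tested.

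Like KCNK1, a further 21 potassium channel genes had no read in vehicle and some after doxorubicin, 22 of 84 read genes (26.2%), against 15.6% of all read genes in the table; 5 libraries against 3 favour this direction. Of the 22, 6 had at most 3 reads. The 22 genes together had 36, 81, 236, 49 and 393 reads in doxorubicin 1 to 5. By CPM doxorubicin 5 was the highest library for 8 of them, doxorubicin 4 for 5, doxorubicin 3 for 4, doxorubicin 2 for 4 and doxorubicin 1 for 1. KCNG1, a silent voltage-gated subunit, had 5, 4, 34, 4 and 139 reads, at least 26.7-fold above the floor and at least 8.44-fold without doxorubicin 5. KCNN4, the calcium-opened channel of blood and immune cells, had 2, 6, 32, 1 and 50 reads, at least 13.0-fold above it and at least 7.37-fold without doxorubicin 5. KCNE5, an auxiliary subunit that inhibits KCNQ1, differed in that doxorubicin 3 was highest and doxorubicin 5 low, with 5, 17, 41, 10 and 6 reads, at least 11.3-fold above the floor and at least 6.95-fold without doxorubicin 3. None of these 3 passed the filter on low counts. KCNA6, a shaker-related channel of nerve, was read 7 times in vehicle and 7, 7, 81, 2 and 37 times after doxorubicin. The 8 macrophage markers summed to 142 to 190 CPM in vehicle and to 240, 446, 540, 448 and 732 CPM in doxorubicin 1 to 5, and nerve and Schwann cell markers to 50.3 to 69.8 CPM and 61.8, 44.1, 62.6, 51.7 and 125 CPM. Of the 8 macrophage markers 5 rose, and C1QA, C1QB and C1QC made up most of their sum in doxorubicin 5 (97.7, 223 and 242 CPM). MRC1 of that list had 8.60 CPM there against 9.99 to 14.1 CPM in vehicle. Most of the nerve sum in doxorubicin 5 was UCHL1 (81.5 CPM), while CDH19 of that list fell. Their part in the levels of KCNN4, KCNA6 and the other genes was not tested.

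**Figure D5:**
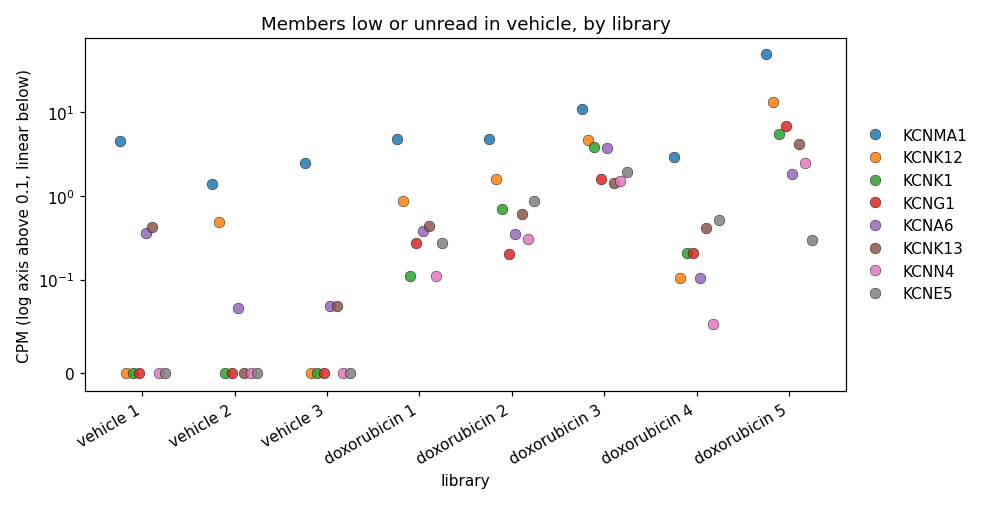
CPM by library of 8 potassium channel genes that were low or unread in vehicle, chosen after their values were seen, on an axis that is logarithmic above 0.1 and linear below. Doxorubicin 3 and doxorubicin 5 lie above the other libraries for 7 of the 8 genes, whereas KCNE5 is low in doxorubicin 5.

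A total of 10 tested potassium channel genes had a mean of 50 CPM or more in vehicle, and 9 of them were lowest in doxorubicin 5 among the doxorubicin libraries. Of all 3019 tested genes at that level 41.5% were lowest there. KCNE1 was the exception, with its lowest level, 53.8 CPM, in doxorubicin 3. Doxorubicin 4 was the highest of the 5 for 7 of the 10, beside 28.2% of all genes at that level. Of all 41 tested potassium channel genes 19 (46.3%) were lowest in doxorubicin 5 and 10 (24.4%) highest there, beside 33.1% and 33.1% of all tested genes. Without doxorubicin 5, 4 members rose and 3 fell of 37 tested, and 5 of these 7 had also passed with all libraries.

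Genes that work with these channels but lie outside the naming rule were followed in 5 lists, on which 47 genes were tested: 12 rose, 5 fell and 30 did not pass (36.2% passed, beside 24.9% of all tested genes). The lists were chosen with earlier results of these data known, so no conclusion is drawn from the higher share. Among regulatory subunits 1 of 6 passed: LRRC26, which shifts BK channel opening, rose by 1.78 on the log2 scale (SE 0.51, adjusted p = 0.0327), from 0.328 ± 0.173 to 1.15 ± 0.274 CPM. No vehicle library reached the filter's level for LRRC26, so it was tested only because of reads after doxorubicin, which favours a rise. DPP6, the Kv4 partner in nerve and Purkinje fibres, had 1.20 and 0.357 CPM on average, and its log2 fold change of −1.72 (SE 0.58) did not pass (adjusted p = 0.0546). Of 13 scaffold and trafficking genes 3 rose and 3 fell, with CAV3, the muscle caveolin that gathers channels at the membrane, rising from 28.9 ± 10.5 to 68.2 ± 12.3 CPM (log2 fold change 1.24, SE 0.25, adjusted p = 0.0112). CACYBP fell from 111 ± 5.73 to 60.6 ± 10.6 CPM (adjusted p = 0.00894), DLG1, a scaffold that holds channels at the membrane, fell by 0.63 on the log2 scale (SE 0.15, adjusted p = 0.0185), and CTTN, an actin-binding protein, rose by 1.41 (SE 0.35, adjusted p = 0.0205).

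Of 8 transcription factors known to set the pattern of ion channel genes, 2 rose and 1 fell. IRX5, a known repressor of KCND2, had 2.71, 6.17 and 1.99 CPM in vehicle and 17.6, 8.13, 18.5, 12.3 and 4.90 CPM after doxorubicin, with overlap in doxorubicin 5 (log2 fold change 1.76, SE 0.52, adjusted p = 0.0358). IRX3, a factor of the conduction system, rose by 0.60 on the log2 scale (SE 0.19, adjusted p = 0.0486), and TBX3, a repressor of working muscle genes in conduction tissue, fell by 0.90 (SE 0.22, adjusted p = 0.0197). Of 13 genes of G protein gating 5 rose and 1, CHRM2, fell. Those that rose included the G protein subunits GNAI2 (0.90 on the log2 scale, SE 0.20, adjusted p = 0.0158), GNB2 (0.99, SE 0.24, adjusted p = 0.0198) and GNB1 (0.65, SE 0.17, adjusted p = 0.0232). Of 7 pump genes only FXYD5, a small regulator of the sodium-potassium pump, rose (1.16, SE 0.35, adjusted p = 0.0380). Among these named partner genes CACYBP held its call except without vehicle 3 (adjusted p = 0.0504). The other partners lost theirs without at least vehicle 1 and vehicle 3, with adjusted p up to 0.191. With library size only DLG1 (adjusted p = 0.197) and TBX3 (adjusted p = 0.0970) did not pass. With the gene density trend removed LRRC26, TBX3, GNAI2, GNB2, GNB1, CHRM2 and FXYD5 did not (adjusted p from 0.0531 for GNAI2 to 0.416 for GNB1), and with no filter LRRC26, IRX5 and IRX3 did not (0.0627, 0.0543 and 0.0675).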

How the data were processed

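Counts per gene were deposited by the authors for 8 libraries; whole numbers with unequal totals show no normalization before deposit. Per the labels' protocols, RNA was isolated with an RNeasy kit and made into libraries with a SMARTER mRNA kit. Aligner, counter and use of strand: not given in the sources used here. All 93 members matched RefSeq Sscrofa11.1 by identifier, with the same start and end. Gene lengths are those of the deposited table. Per the labels, groups came from the treatment field.

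The filter was filterByExpr of edgeR 4.0.16 under R 4.3.3, which needed a count near 10 in at least 3 libraries and 15 in total. TMM scaling and a robust quasi-likelihood fit followed, without covariates beside treatment, and adjusted p under 0.05 was called. The fit was tested on simulated data. SE is the log2 fold change over the root of F. CPM use TMM-adjusted library sizes. Named were all called members, KCNK1, the 3 highest members per class by level per length, 21 cardiac current genes, and up to 4 called genes per partner list with the smallest p; any other was named after its values were seen. Members and lists were chosen with earlier results of these data known, and the 6 ratios after the values were seen. Alternatives were RLE factors, library size only, TMM leaving out mitochondrial and haemoglobin genes and the top 20 by count, no filter, CPM above 1 in 3 libraries, DESeq2 1.42.0, limma 3.58.1 voom, the replicate number as a block, removal of a lowess trend (span 0.3) on gene length or on gene density, the number of protein-coding neighbours inside 500 kb, and each library left out. Between same-group libraries, chi-square per degree of freedom was 18.5 to 308, above sampling noise, and none was a copy. Figures used matplotlib 3.10.9. A member and a pump gene are not reported here.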

Additional observations from a re-analysis of the deposited data

Results flagged for a closer look

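Among 29 named potassium channel genes, 5 had a doxorubicin library whose gap to its nearest neighbour took up more of the group's range than the 95% limit for 5 samples (0.71); chance gives about 1 in 20. For KCNK6 doxorubicin 4 lay below the others (gap 0.945 of the range). KCNA4 was high in doxorubicin 2 (0.898), KCNK3 in doxorubicin 3 (0.867), KCNMA1 in doxorubicin 5 (0.831) and KCNT2 in doxorubicin 1 (0.718). These are 5 different libraries. KCNA4 and KCNK3 rest on few reads.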

How the results depend on the processing

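The count of 4 members higher and 3 lower was 9 higher with library size only, 2 with the gene density trend removed, 7 by DESeq2, and 11 higher and 5 lower by limma voom. With the replicate number as a block 6 were higher and 4 lower. KCNMB4 did not pass (adjusted p = 0.0757), and KCNT2 (0.0241), KCNK12 (0.0371), KCNA7 (0.046) and KCNAB1 (0.0486) did. In that fit doxorubicin 4 and doxorubicin 5 share their number with no vehicle library, so they do not inform the difference between groups. Of the named partner genes LRRC26 (0.0793), IRX3 (0.0726) and GNB1 (0.0512) did not pass with the block. Leaving out 1 library gave 1 to 6 higher and 0 to 5 lower, 649 to 4737 calls over all tested genes (3714 with all libraries) and 0 to 19 partner and pump genes (17). By limma voom with quality weights 8051 genes and 28 partner genes passed, by DESeq2 4945 genes, and with the density trend removed 9 partner genes. With library size only tested genes had a median log2 fold change of 0.38 and the members one of 0.46, and 4093 genes were higher and 499 lower, against 2033 and 1681. Only KCNAB2 passed whichever library was left out.

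With library size only KCNE1 was at 0.29, KCNJ2 at 0.23 and KCNH2 at 0.18. With the density trend removed KCNE1 was at 0.083, KCNJ2 at 0.14 and KCNQ1 at −0.14. By limma voom KCNE1 was at 0.14, KCNJ2 at 0.044 and KCNH2 at 0.058, and with the replicate block KCNJ11 was at −0.0067. Leaving out 1 library turned KCNQ1 (−0.084 to 0.16), KCNE1 (−0.15 to 0.092), KCNJ11 (−0.040 to 0.20), KCNA5 (−0.11 to 0.48) and KCNJ2 (−0.21 to 0.027), and, with wider ranges, KCNMB1 (−0.94 to 1.08) and KCNA3 (−0.16 to 1.62). The log2 ratio differences of KCNE1 to KCNQ1 (−0.20 to 0.046) and KCNJ11 to KCNJ8 (−0.13 to 0.15) turned likewise. The cause was not tested. Same-numbered libraries did not deviate together (correlations 0.04, 0.00 and −0.00), and no vehicle library correlated best with its own number. No pairing by number was thus seen, but so few pairs cannot exclude one or a shared batch. The 52 members not tested reached the filter's level in fewer than 3 libraries, and 9 of them had no read. Not all were short of reads in total: KCNG1 had 186, of which 139 were in doxorubicin 5.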
